A study of Homo sapiens with 30 samples.

Results

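The genes described are the clustered and linker histone genes, those for the core histones H2A, H2B, H3 and H4 and for the linker histone H1. They were taken by gene name: every gene whose symbol starts HIST1H, HIST2H, HIST3H or HIST4H, or whose current symbol starts H1-, H2AC, H2BC, H3C or H4C followed by a digit. Of 27348 genes in the deposited count tables, 74 matched, 4 of them only through their current RefSeq symbol. Of these 74, 52 had 10 or more counts in 2 or more libraries and are described: 5 of 10 H1 genes, 11 of 15 H2A genes, 15 of 19 H2B genes, 10 of 12 H3 genes, 9 of 14 H4 genes, 1 of 3 pseudogenes (H2BC20P) and 1 antisense gene, H1-10-AS1. None of the 22 others exceeded 10 counts in any library. Among the 52, 30 had 10 or more counts in every library.

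The cells were RUES2, a human embryonic stem cell line, grown in TeSR E7 medium with a ROCK inhibitor. All RNA came from this line, and no gene was altered. CPI-203 is an inhibitor of the BET proteins, readers of acetylated chromatin, and Wnt3a and Activin A are signals that direct such cells towards mesendoderm. RNA was sequenced in 16 libraries, 2 for each of 8 groups. At 48 h the groups were WNT_CPI_ACT (Wnt3a at 100 ng/mL with CPI-203 at 1 µM on day 1, Activin A at 10 ng/mL on day 2), WNT_ACT (Wnt3a, then Activin A), E7_ACT (medium alone, then Activin A) and WNT_E7 (Wnt3a, then medium alone). At 24 h they were WNT_CPI (Wnt3a with CPI-203), WNT (Wnt3a), E7_CPI (CPI-203 alone) and E7 (no agent). The labels do not say that the 2 libraries of a group came from separate cultures, so p-values cover the spread of these libraries alone, which may be technical.

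Core histones form the nucleosome, the spool on which DNA is wound, and H1 binds the DNA that enters and leaves it. Most of these genes lie in clusters and are transcribed mainly in S phase, when new DNA needs new histones. Their transcripts usually end in a stem-loop in place of a poly(A) tail, and many of the same genes can also give polyadenylated transcripts, as differentiated or arrested cells are known to make. How the libraries were selected for poly(A) is not given in the sources used here, so transcripts with and without a tail cannot be told apart in these counts. The genes that stand outside this scheme include H1-10 and H1-10-AS1, a long non-coding RNA named as its antisense partner. H1-10 is the only protein-coding gene of the 52 on chromosome 3. Of the 52 genes, 37 lie on chromosome 6, 11 on chromosome 1, 2 on chromosome 3 and 1 each on chromosomes 12 and 21.

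The promoters below are those of the 3 genes that mark the set (H2BC5, H2BC12 and H4C8), of H3C4, which rose most at 24 h, and of H4C11, whose change was among the smallest; the last pair was chosen after its values were seen. Each is the 300 bases from 250 before to 50 after the start of the gene, from RefSeq on GRCh38.p14. H2BC5 is at chr6:26157871-26158170 on the plus strand, H2BC12 at chr6:27146809-27147108 on the minus strand, H4C8 at chr6:26285485-26285784 on the minus strand, H3C4 at chr6:26199244-26199543 on the minus strand and H4C11 at chr6:27823842-27824141 on the plus strand. Capitals mark 4 motifs searched on both strands. TATAAA is the core of the promoter box that sets the start of transcription, and CCAAT is the box that NF-Y binds. ATTTGCAT is the octamer that POU factors bind, and TGACGTCA, the cyclic AMP response element, is its own reverse complement.
H2BC5: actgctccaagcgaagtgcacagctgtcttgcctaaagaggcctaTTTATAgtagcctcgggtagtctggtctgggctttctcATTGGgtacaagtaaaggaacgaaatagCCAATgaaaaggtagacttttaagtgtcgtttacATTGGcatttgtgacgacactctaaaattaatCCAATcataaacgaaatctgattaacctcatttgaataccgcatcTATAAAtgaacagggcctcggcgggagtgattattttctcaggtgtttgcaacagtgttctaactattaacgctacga
H2BC12: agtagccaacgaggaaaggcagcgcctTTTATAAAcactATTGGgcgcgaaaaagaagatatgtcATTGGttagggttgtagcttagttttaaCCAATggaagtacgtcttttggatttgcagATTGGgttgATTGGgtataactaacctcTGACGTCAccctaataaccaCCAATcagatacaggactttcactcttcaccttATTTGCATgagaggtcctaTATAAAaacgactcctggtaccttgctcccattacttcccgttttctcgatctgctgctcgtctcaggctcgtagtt
H4C8: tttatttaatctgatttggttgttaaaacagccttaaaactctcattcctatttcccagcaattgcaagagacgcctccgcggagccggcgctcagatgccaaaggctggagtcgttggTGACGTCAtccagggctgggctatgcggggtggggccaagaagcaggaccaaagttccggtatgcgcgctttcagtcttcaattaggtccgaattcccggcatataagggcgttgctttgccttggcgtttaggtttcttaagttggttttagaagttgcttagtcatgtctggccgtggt
H3C4: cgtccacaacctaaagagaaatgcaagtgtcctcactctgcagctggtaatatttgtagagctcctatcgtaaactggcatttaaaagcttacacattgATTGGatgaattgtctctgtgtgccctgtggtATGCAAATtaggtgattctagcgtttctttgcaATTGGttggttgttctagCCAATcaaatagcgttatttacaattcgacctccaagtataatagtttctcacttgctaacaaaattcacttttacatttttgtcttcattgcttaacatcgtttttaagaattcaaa
H4C11: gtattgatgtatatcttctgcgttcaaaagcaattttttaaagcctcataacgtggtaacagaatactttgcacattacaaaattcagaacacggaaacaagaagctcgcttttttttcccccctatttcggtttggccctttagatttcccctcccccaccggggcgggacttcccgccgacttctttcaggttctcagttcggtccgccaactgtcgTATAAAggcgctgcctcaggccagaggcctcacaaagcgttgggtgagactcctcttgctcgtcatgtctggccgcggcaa
In H2BC5 a TATAAA begins 28 bases before the start, and 4 CCAAT boxes lie further upstream. H2BC12 has a TATAAA at 27 bases, an octamer at 46, a TGACGTCA at 99 and 6 CCAAT boxes, and its most distant pair of TATAAA matches overlaps. H4C8 holds only a TGACGTCA, H4C11 only a TATAAA 31 bases before its start, and H3C4 has 3 CCAAT boxes and an octamer but no TATAAA.

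Across the set, 46 of the 52 genes had an entry in the RefSeq promoter table. TATAAA was found in 67.4% of these 46 promoters, against 12% of all 27305 promoters in the table, and CCAAT in 82.6% against 35.7%. The octamer was found in 39.1% of the histone promoters and 1.8% of all promoters, and TGACGTCA in 15.2% and 1.98%. The families differed in their letters: the octamer was in 7 of 10 H2A and 10 of 14 H2B promoters, in 1 of 9 H3 promoters and in no H1 or H4 promoter. CCAAT was in every H2A, H2B and H3 promoter in the table, in 4 of 5 H1 promoters and in 1 of 8 H4 promoters. The 36 promoters of genes that rose in both CPI-203 comparisons at 24 h held TATAAA in 63.9%, CCAAT in 83.3%, the octamer in 41.7% and TGACGTCA in 13.9%, against 80%, 80%, 30% and 20% of the 10 other promoters. These matches describe letters in a window and not bound sites.

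Total counts were 36268324 to 43347733 per library, and a single histone gene took up to 6511 counts in one of them. The 7 pluripotency markers with a row in the tables summed to 4260 to 8510 CPM per library, and POU5F1 had at least 238 CPM and SOX2 at least 155 CPM in every one. NANOG stood apart among them, at 1.22 and 1.31 CPM in WNT_CPI, against 137 and 196 CPM in WNT, and 0.933 and 0.809 CPM in E7_CPI, against 71.6 and 112 CPM in E7. The 8 fibroblast markers summed to 379 to 1050 CPM, with COL1A1, COL1A2 and THY1 present throughout and DCN without a count in any library, and the 4 blood markers summed to at most 1.31 CPM. The part of these markers in the histone values was not tested. One library stands apart. The column labelled E7_CPI replicate 1 was not in the order of the gene names beside it (highest absolute Spearman correlation with another library 0.007) and was read here in the order of the replicate 2 table (0.954 to 0.986). Read so, it differed from E7_CPI replicate 2 by a median of 0.0727 on the log2 scale, against 0.272 to 0.4 between the libraries of the 7 other groups. The labels call these columns 2 samples, but they may be 1 sample, in which case E7_CPI has n = 1. Both columns also lay closer to WNT_CPI replicate 2 (median 0.126 and 0.12) than to WNT_CPI replicate 1 (0.343 and 0.317). E7_CPI over E7 may therefore not be balanced for the replicate number, and the part of this in its values was not tested. Both columns are printed, and values in E7_CPI over E7 are also given without the column labelled E7_CPI replicate 1. With the pair summed as 1 library, 39 histone genes rose in E7_CPI and 1 fell.

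In cells that had CPI-203 alone for 24 h, most of the histone genes were higher than in cells without it. With edgeR's quasi-likelihood F-test and Benjamini-Hochberg adjustment over 17441 genes, called at an adjusted p under 0.05, 43 of 52 genes rose in E7_CPI against E7 and 1 fell. Of all genes tested, 15% were called higher and 17.6% lower. The median log2 fold change was 2.91 over the 52 genes and -0.053 over all genes tested. Without the column labelled E7_CPI replicate 1, the median log2 fold change was 2.88 over the histone genes and -0.083 over all genes tested. That fit rests on 1 E7_CPI library assumed to vary like the other groups. Fewer genes passed in it, histone genes and others alike. With both libraries, DESeq2 called 44 histone genes higher and 1 lower, against 3031 and 3364 of 17441 genes tested. Leaving that column out moved the log2 fold changes by a median of 0.07 and by at most 0.41, in H3C13.

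The same held for cells given Wnt3a. In WNT_CPI against WNT, 42 of the 52 genes rose and 1 fell, where 13% of all genes tested were called higher and 17.9% lower. The median log2 fold change was 2.85 over the histone genes and -0.011 over all genes tested. These 2 comparisons share no library. The 39 genes that rose in both made up 90.7% of those that rose in E7_CPI and 92.9% of those that rose in WNT_CPI. The overlap over all genes was not computed, so such shares do not set the histone genes apart from other genes. Without the column labelled E7_CPI replicate 1, 35 genes rose in both, 94.6% of 37 and 87.5% of 40. With both E7_CPI libraries, H1-4, H2AC16, H2BC13 and H4C16 passed the test in E7_CPI and not in WNT_CPI. H2AC21, H3C12 and H3C6 passed in WNT_CPI and not in E7_CPI. Which genes passed in 1 comparison only changed when the column labelled E7_CPI replicate 1 was left out, so this split rests on that column.

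H2BC5, which encodes a core histone H2B, shows the size of the change. It had 145 and 122 CPM in WNT_CPI, against 2.95 and 2.91 CPM in WNT, and 144 and 138 CPM in E7_CPI, against 4.03 and 3.13 CPM in E7. The libraries with CPI-203 at 24 h lie far above every other library, and the groups do not overlap. These levels rest on 5906 and 5029 counts in WNT_CPI and on 126 and 104 counts in WNT. The log2 fold change was 5.51 ± 0.23 (SE, n = 2 per group, adjusted p = 7.94e-07 by edgeR) in WNT_CPI and 5.30 ± 0.22 (adjusted p = 9.24e-07) in E7_CPI.

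H2BC12, another H2B gene, had 26.1 and 24.2 CPM in WNT_CPI, against 1.48 and 1.57 CPM in WNT. It had 35.2 and 34.6 CPM in E7_CPI, against 1.76 and 1.86 CPM in E7. It was higher in all 4 libraries that held CPI-203 at 24 h than in any of the other 12, with log2 fold changes of 4.05 ± 0.26 and 4.26 ± 0.26 (SE; edgeR adjusted p = 3.86e-06 and 4.36e-06). H4C8, a gene for histone H4, had 13.4 and 9.39 CPM in WNT_CPI, against 0.422 and 0.28 CPM in WNT, and 14.7 and 15.7 CPM in E7_CPI, against 0.429 and 0.621 CPM in E7. Its log2 fold changes were 5.0 ± 0.40 and 4.85 ± 0.39 (SE; edgeR adjusted p = 1.37e-05 and 1.64e-05). H2BC12 shares most of its sequence with H2BC12L on chromosome 21, whose log2 fold changes were 4.11 and 4.31, and the counting could have split reads between them.

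The largest change belonged to H3C4, a core histone H3 gene. It had 19.7 and 17.5 CPM in WNT_CPI, against 0.351 and 0.392 CPM in WNT, and 24.3 and 23.1 CPM in E7_CPI, against 0.214 and 0.287 CPM in E7. That is a 49.8-fold difference in Wnt3a-treated cells (log2 5.64 ± 0.31) and a 93.6-fold difference without Wnt3a (log2 6.55 ± 0.32), on 15 and 14 counts in WNT and 9 and 12 in E7. Next after H3C4 and the markers H2BC5 and H4C8 in WNT_CPI were H3C14 (H3) and H4C15 (H4), at log2 4.91 ± 0.40 and 4.79 ± 0.22 in WNT_CPI and 5.21 ± 0.41 and 5.08 ± 0.22 in E7_CPI. Each of these has a near-identical copy not analysed here, H3C15 and H4C14, so their counts may be shared between copies.

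**Figure D1:**
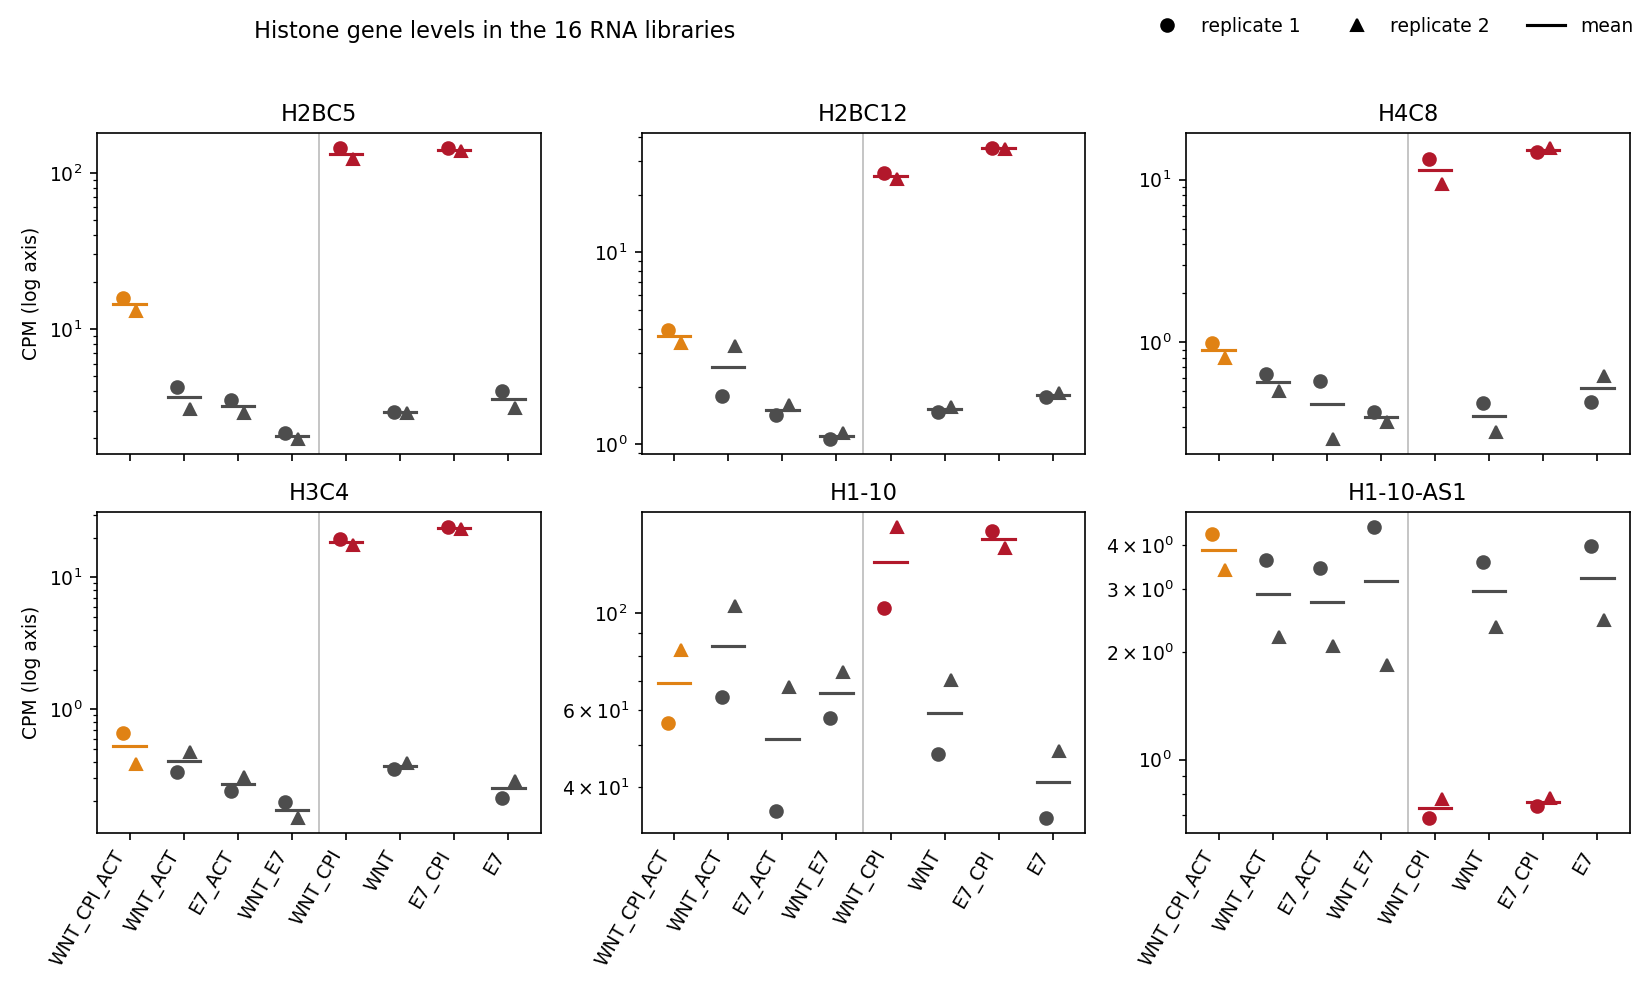
CPM in each of the 16 libraries (log axes, each panel with its own range) for 6 histone genes, with circles for replicate 1, triangles for replicate 2 and bars for the mean of 2. The 4 libraries with CPI-203 at 24 h (red) stand above all others for H2BC5, H2BC12, H4C8 and H3C4 and below all others for H1-10-AS1, and WNT_CPI_ACT (orange) lies among or just above the libraries without CPI-203 for all but H2BC5.

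By family, the H2B genes had the highest median in both comparisons, and differences between families were not tested. In WNT_CPI against WNT, 14 of 15 H2B genes rose (median log2 3.88), as did 9 of 10 H3 genes (3.29), 9 of 11 H2A genes (2.15), 6 of 9 H4 genes (2.07) and 3 of 5 H1 genes (2.15). In E7_CPI against E7, the same families had 15 of 15 (3.89), 7 of 10 (3.11), 9 of 11 (2.23), 7 of 9 (2.59) and 4 of 5 (2.45), and without the column labelled E7_CPI replicate 1 the counts were 14, 6, 7, 5 and 4. The pseudogene H2BC20P also rose, by log2 2.70 ± 0.26 and 2.03 ± 0.25. On chromosome 1, 11 of 11 genes rose in WNT_CPI and 10 of 11 in E7_CPI, and on chromosome 6, 29 and 30 of 37 did, or 28 and 25 without that column. The whole range among the coding genes was log2 0.40 to 5.64 in WNT_CPI and -0.12 to 6.55 in E7_CPI.

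**Figure D2:**
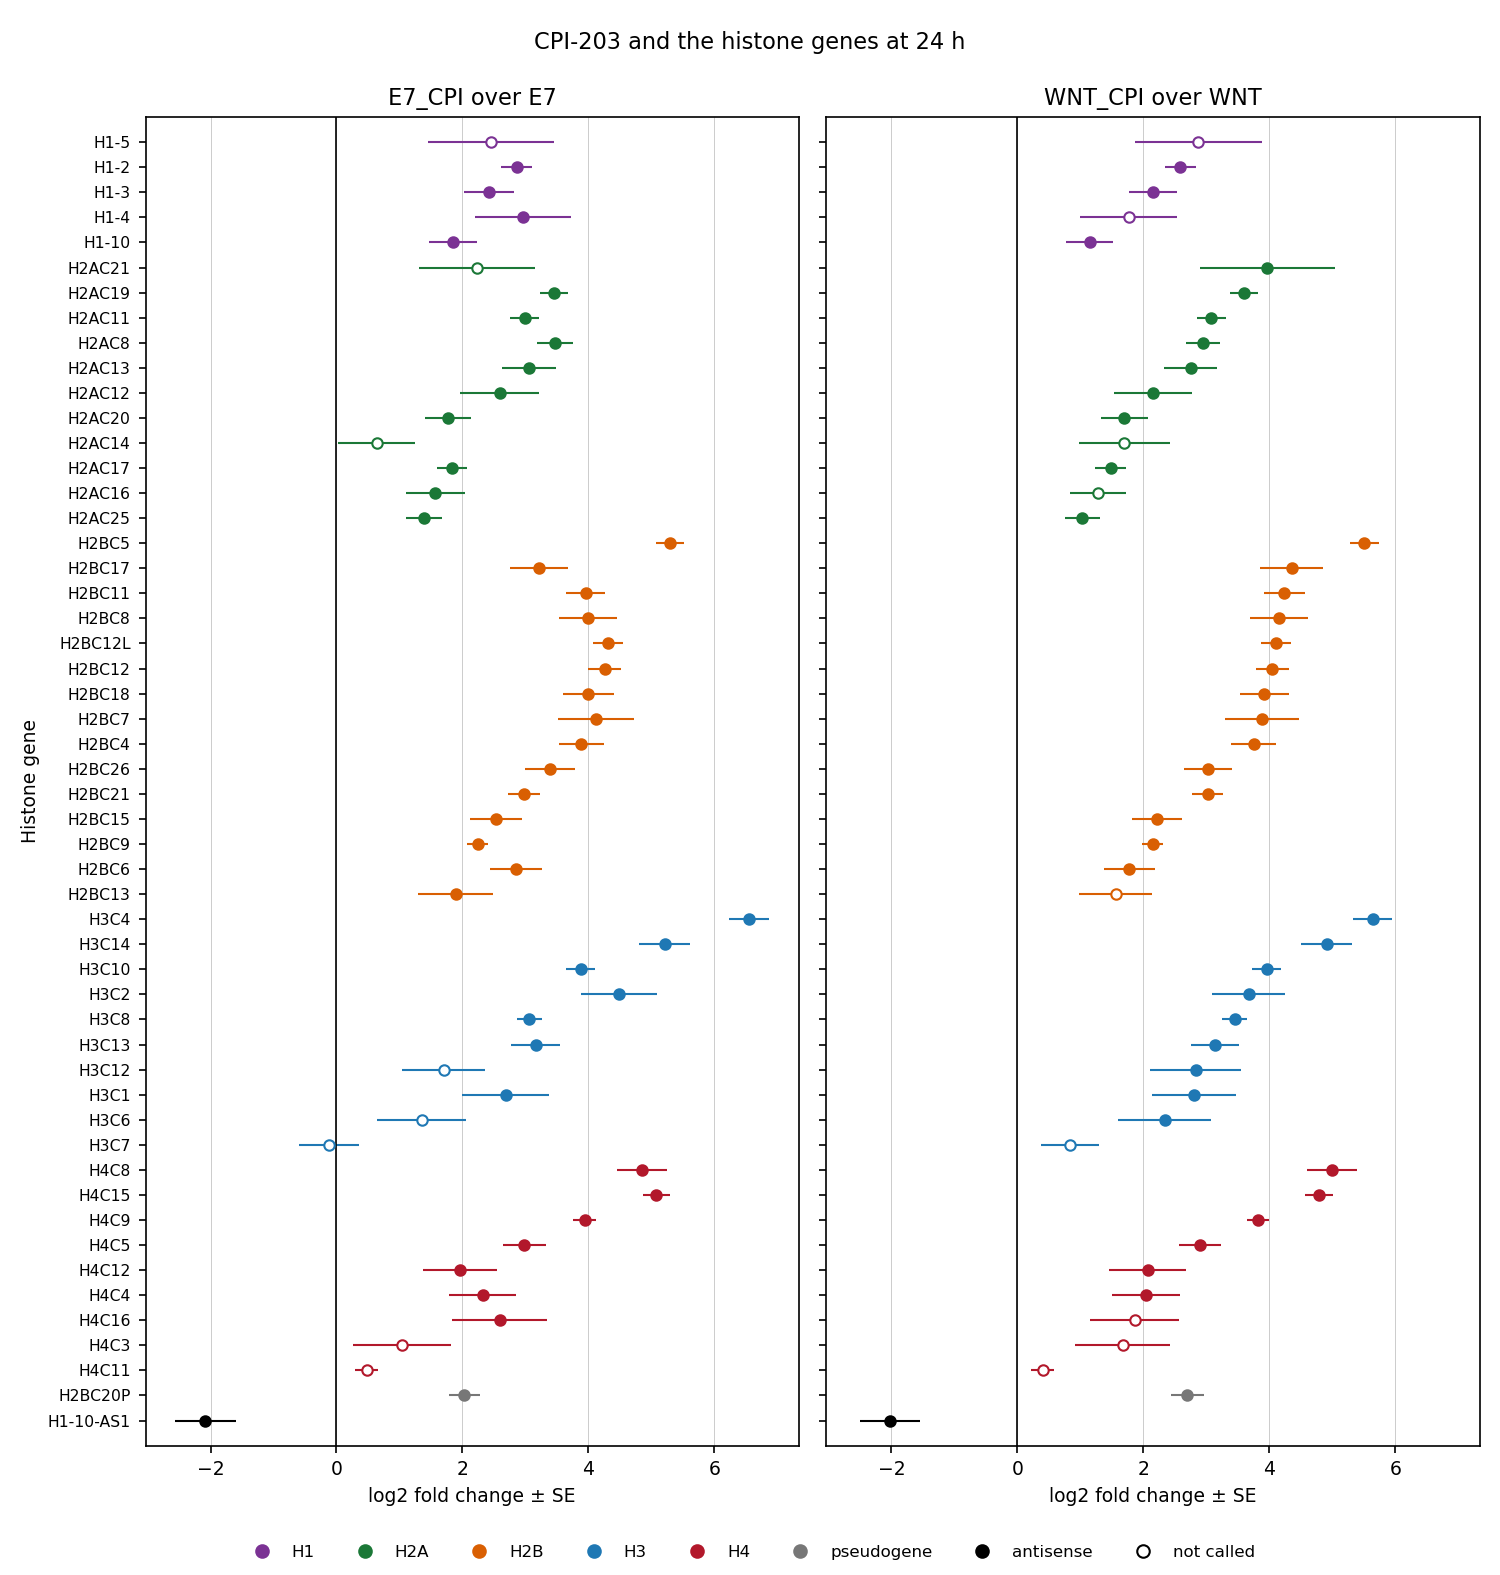
Log2 fold change ± SE of the 52 histone genes at 24 h in E7_CPI over E7 (left) and WNT_CPI over WNT (right), coloured by family, with open circles for genes that did not pass the test. All 15 H2B genes lie right of 0 in both panels, and H1-10-AS1 is the only filled point left of 0.

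Summed over the 50 protein-coding genes, the level was 881 and 850 CPM in WNT_CPI, against 109 and 136 CPM in WNT, a 7.07-fold difference of the means. In E7_CPI it was 973 and 945 CPM, against 97.9 and 112 CPM in E7, a 9.12-fold difference. H1-10 alone, at 47.6 and 70.5 CPM, made up a large share of the sum in WNT, and without it the differences were 11.6-fold and 12.7-fold. By family, the summed level differed 17.8-fold for H3, 15.2-fold for H2B, 12.2-fold for H4, 5.49-fold for H2A and 2.5-fold for H1 in WNT_CPI over WNT. Without H1-10 the H1 difference was 5.96-fold, and without the genes that have a near-identical copy it was 14.1-fold for H3, 6.65-fold for H4 and 4.45-fold for H2A. These sums follow the most counted genes of a family and the medians above do not.

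H2A and H2B genes often sit head to head, sharing the DNA between their starts. Among the 46 genes with an entry in the RefSeq promoter table, 6 such pairs had starts within 1000 bases of each other. In 5 of the 6 the H2B gene had the larger log2 fold change, in both comparisons. The difference between partners was widest for H2AC17 and H2BC17 in WNT_CPI, where H2BC17 rose by log2 4.36 ± 0.50 and H2AC17 by 1.48 ± 0.24. The exception was H2AC13 and H2BC13: H2AC13 rose by log2 2.75 ± 0.42, and H2BC13, at 1.56 ± 0.58, did not pass the test (edgeR adjusted p = 0.0626). Differences within pairs were not tested.

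Among the linker histone genes, H1-2 and H1-10 were counted most. H1-2, a replication-dependent linker histone gene, had 28.9 and 24.2 CPM in WNT_CPI, against 3.7 and 5.12 CPM in WNT, and 28.6 and 27.8 CPM in E7_CPI, against 3.48 and 4.28 CPM in E7. Its log2 fold changes were 2.59 ± 0.25 and 2.86 ± 0.25. H1-10, a linker histone expressed outside S phase as well, had 103 and 158 CPM in WNT_CPI, against 47.6 and 70.5 CPM in WNT, and 154 and 141 CPM in E7_CPI, against 33.9 and 48.3 CPM in E7. The groups do not overlap, with log2 1.15 ± 0.37 in WNT_CPI (edgeR adjusted p = 0.0386) and 1.85 ± 0.38 in E7_CPI (adjusted p = 0.00409). The call in WNT_CPI was lost without the column labelled E7_CPI replicate 1, at an adjusted p of 0.0572 by edgeR.

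H1-10-AS1 went the other way. It had 0.685 and 0.778 CPM in WNT_CPI, against 3.58 and 2.35 CPM in WNT, and 0.741 and 0.781 CPM in E7_CPI, against 3.98 and 2.46 CPM in E7. All 4 libraries with CPI-203 at 24 h are below the other 12. It fell by 2.02 ± 0.48 on the log2 scale in WNT_CPI (edgeR adjusted p = 0.00862) and by 2.08 ± 0.48 in E7_CPI (adjusted p = 0.00727). The call was lost when WNT replicate 1 or WNT_CPI replicate 1 was left out of the first comparison, and when E7 replicate 1 or the column labelled E7_CPI replicate 1 was left out of the second (adjusted p = 0.054 without that column). Strand use in counting is not given in the sources used here, so reads of H1-10 and H1-10-AS1 cannot be told apart where they overlap.

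Among the coding genes, 5 passed the test in neither comparison. H4C11, a histone H4 gene, had 7.56 and 6.71 CPM in WNT_CPI, against 4.69 and 6.1 CPM in WNT, and 7.3 and 6.64 CPM in E7_CPI, against 4.84 and 5.16 CPM in E7. Its log2 fold changes were 0.40 ± 0.18 (edgeR adjusted p = 0.11) and 0.48 ± 0.18 (adjusted p = 0.061), on 200 or more counts in each of these 8 libraries. With the replicate number as a block it passed in E7_CPI (edgeR adjusted p = 0.0382). The replicate numbers did not pair the E7_CPI libraries with those of other groups, so this pass may rest on a wrong pairing. H3C7 (H3) had 0.416 and 0.438 CPM in WNT_CPI, against 0.305 and 0.168 CPM in WNT, and its log2 fold changes were 0.83 ± 0.46 and -0.12 ± 0.47. H1-5 (a linker histone), H2AC14 (H2A) and H4C3 (H4) reached at most 1.47 CPM, 0.474 CPM and 0.535 CPM in any library. Their log2 fold changes were 2.87 ± 1.01, 1.70 ± 0.72 and 1.67 ± 0.76 in WNT_CPI and did not pass. With the block H1-5 passed in WNT_CPI and in E7_CPI (edgeR adjusted p = 0.00651 and 0.0147), the latter under the same limit.

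**Figure D3:**
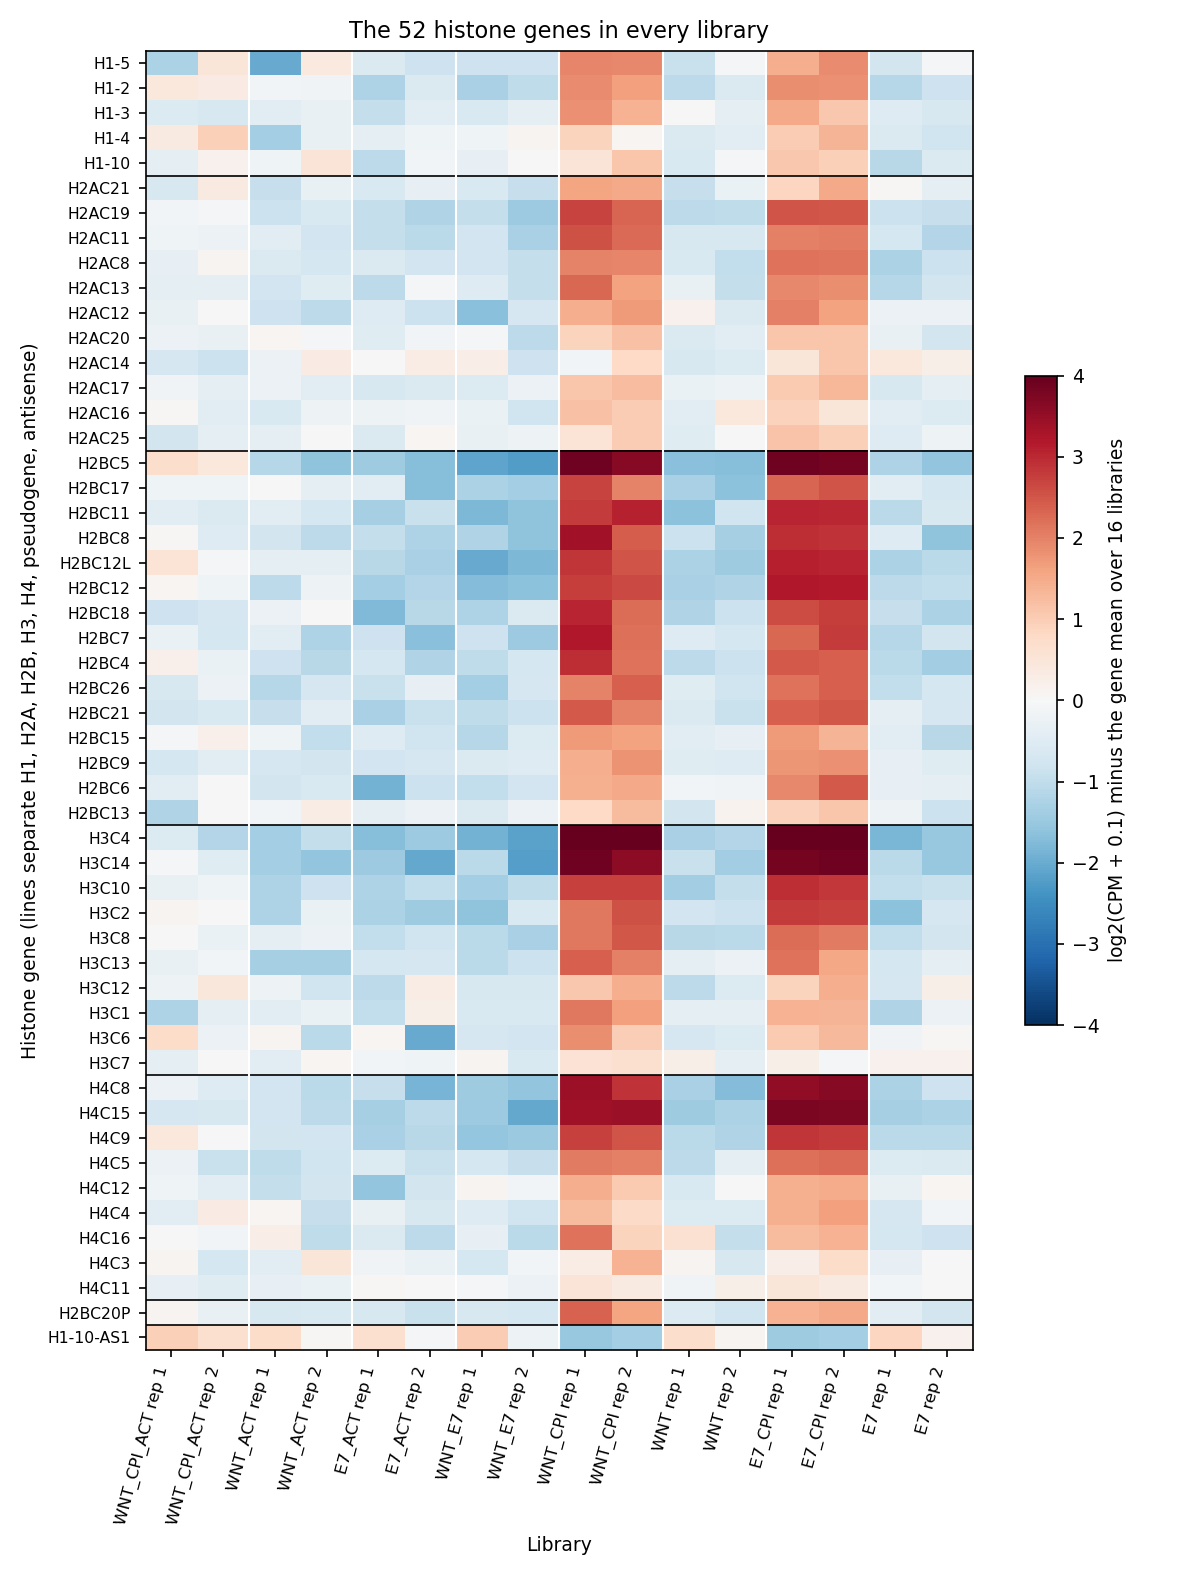
The 52 histone genes (grouped by family) in each of the 16 libraries, as log2(CPM + 0.1) minus the mean of that gene over all libraries, red for higher and blue for lower. The 4 columns of WNT_CPI and E7_CPI are red for nearly all genes, and the row of H1-10-AS1 is blue there.

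Whether Wnt3a altered the difference that CPI-203 made was tested directly, and no histone gene passed. The difference between log2 fold changes was that of WNT_CPI over WNT minus that of E7_CPI over E7. It passed the test in 0 of 52 histone genes by edgeR and in 0 by DESeq2, and in 0.0115% of all genes tested by edgeR. An unadjusted p under 0.05 by edgeR was reached by 1 histone gene, against 445 of 17441 genes tested. The differences ran from -1.19 to 1.74, with a median of -0.086. For the markers it was 0.21 ± 0.27 (H2BC5), -0.22 ± 0.33 (H2BC12) and 0.15 ± 0.50 (H4C8) on the log2 scale (SE; edgeR adjusted p = 0.996 for each), so differences of the size of these errors would not be seen.

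A day after CPI-203, in cells that then had Activin A, little of the rise was measured. In WNT_CPI_ACT against WNT_ACT, 4 of 52 histone genes rose and none fell, where 1.87% of all genes tested were called higher and 3.97% lower. The median log2 fold change was 0.44 over the 52 genes and 0.0002 over all genes tested. An unadjusted p under 0.05 by edgeR was reached by 12 histone genes, against 3220 of 17441 genes tested. DESeq2 called 5 higher and none lower. Over all 17441 genes tested, DESeq2 called 675 higher and 1139 lower, and the replicate block 952 and 1669. The next counts are of histone genes. Blocking on the replicate number gave 7 called higher, or 10 without the column labelled E7_CPI replicate 1, and leaving out WNT_ACT replicate 1 or either WNT_CPI_ACT library brought the count to 2. Fitted on the compared groups alone, 0 of 52 histone genes and 0 of all genes tested were called. Markers of the primitive streak, the mesendoderm that these signals induce, summed to 38.1 and 251 CPM in WNT_CPI_ACT, against 229 and 1420 CPM in WNT_ACT, and their part in these histone values was not tested.

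The 4 genes were H2BC5, H4C9, H3C10 and H3C13. H2BC5 had 15.8 and 13 CPM in WNT_CPI_ACT, against 4.26 and 3.08 CPM in WNT_ACT (log2 1.97 ± 0.20, edgeR adjusted p = 0.00077). H4C9 (H4) had 8.72 and 6.55 CPM, against 3.87 and 3.74 CPM (log2 1.00 ± 0.17, adjusted p = 0.00856), and H3C10 (H3) had 3.71 and 4.09 CPM, against 1.9 and 2.53 CPM (log2 0.82 ± 0.21, adjusted p = 0.0474, and 0.0825 without the column labelled E7_CPI replicate 1). In all 3 the groups do not overlap. H3C13 (H3) rested on 15 counts in WNT_CPI_ACT and 2 in WNT_ACT, a ratio of 6.79 with an exact interval of 1.58 to 61.2 that covers counting error only (95%; edgeR adjusted p = 0.0355).

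The other markers did not pass the test at 48 h. H2BC12 had 3.96 and 3.36 CPM in WNT_CPI_ACT, against 1.79 and 3.24 CPM in WNT_ACT (log2 0.54 ± 0.23, edgeR adjusted p = 0.243), and H4C8 had 0.985 and 0.798 CPM, against 0.641 and 0.501 CPM (log2 0.64 ± 0.37, adjusted p = 0.424). H3C4, the gene with the largest difference at 24 h, had 0.664 and 0.387 CPM, against 0.333 and 0.474 CPM, so its groups overlap. H1-10-AS1 had 4.3 and 3.41 CPM in WNT_CPI_ACT, against 3.62 and 2.21 CPM in WNT_ACT, and H1-10 had 56.0 and 82.5 CPM, against 64.4 and 104 CPM. Summed over the 50 coding genes the level was 165 and 183 CPM in WNT_CPI_ACT, against 138 and 179 CPM in WNT_ACT, and without H1-10 the difference was 1.42-fold.

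The CPI-203 difference at 48 h was tested against that at 24 h directly. The log2 fold change of WNT_CPI_ACT over WNT_ACT minus that of WNT_CPI over WNT was below 0 for 31 of 52 histone genes and above 0 for 1 by edgeR at an adjusted p under 0.05, against 5.57% and 7.67% of all genes tested. Its median was -2.46 over the histone genes and 0.0029 over all genes. It was largest for H3C4 (-5.25 ± 0.42, adjusted p = 5.98e-05), and was -3.54 ± 0.28 for H2BC5, -3.51 ± 0.34 for H2BC12 and -4.36 ± 0.53 for H4C8. H1-10-AS1 was the 1 gene above 0 (2.42 ± 0.65, adjusted p = 0.0324). The 48 h groups differ from the 24 h groups in time, in Activin A and in a day without Wnt3a and CPI-203. Those cannot be told apart here.

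**Figure D4:**
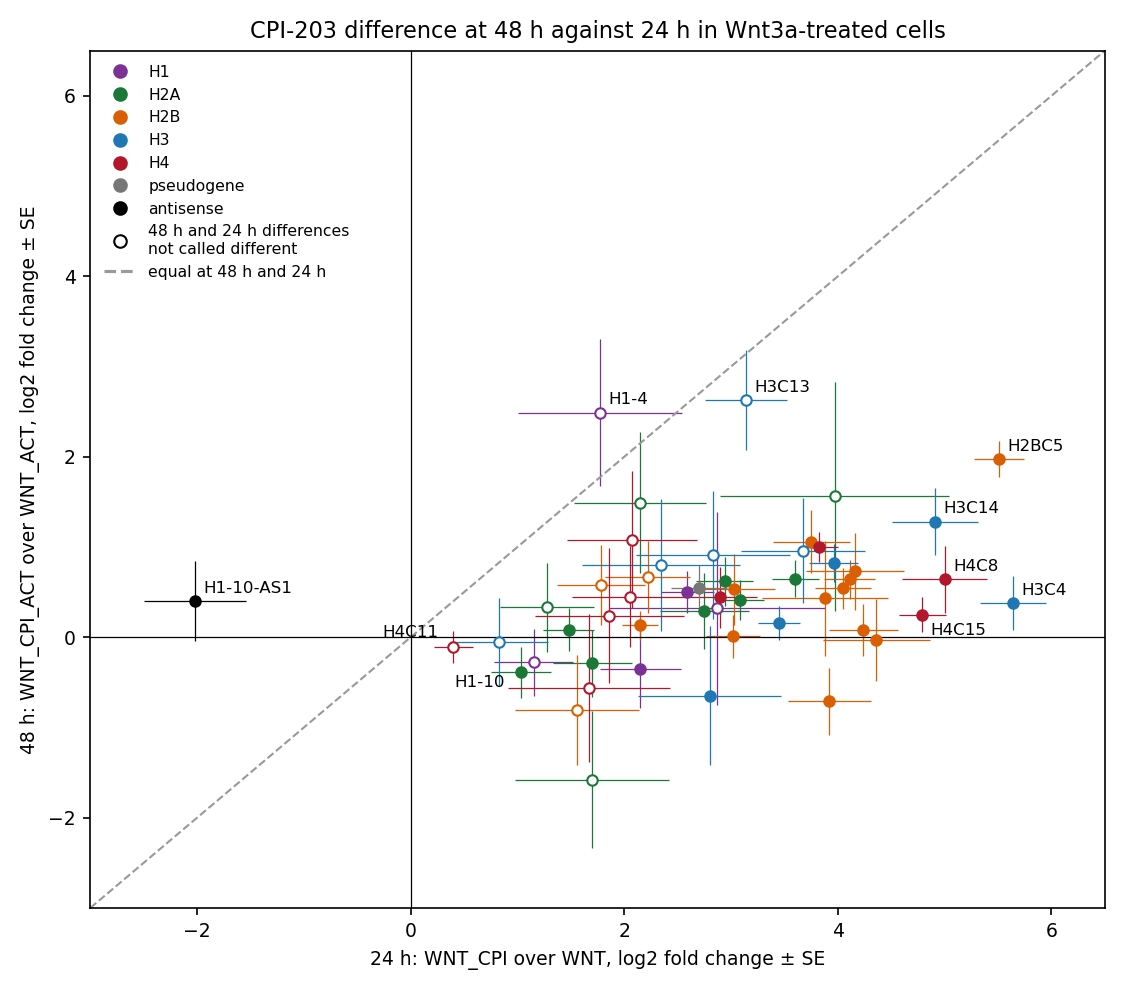
Log2 fold change ± SE of each histone gene in WNT_CPI_ACT over WNT_ACT at 48 h (vertical) against WNT_CPI over WNT at 24 h (horizontal), coloured by family, with open circles where the 2 were not called different and a dashed line where they are equal. Nearly all points lie well below the line, H2BC5 is at 1.97 against 5.51, and H1-10-AS1 and H1-4 are the only points above the line.

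WNT_CPI_ACT was also set against WNT_CPI, its group at 24 h. Here 40 of 52 histone genes were lower and 1, H1-10-AS1, was higher (log2 2.39 ± 0.48, edgeR adjusted p = 0.00397), where 11.9% of all genes tested were called lower and 14.8% higher. The median log2 fold change was -2.42, and all 15 H2B genes were among those that fell. The log2 fold change was -5.13 ± 0.30 for H3C4, -4.09 ± 0.21 for H4C15 and -4.02 ± 0.38 for H3C14, and all 3 fell. H4C11, which edgeR had not called at 24 h without the block, fell by 0.87 ± 0.18 (adjusted p = 0.00467). This comparison shares WNT_CPI with that of WNT_CPI against WNT. Its groups differ in time, in Activin A and in a day without Wnt3a and CPI-203, which cannot be told apart.

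Where the groups compared differed in Wnt3a or Activin A and not in CPI-203, few histone genes passed the test. E7_ACT against E7 also sets 48 h cells against 24 h cells, so Activin A and day cannot be told apart there. In WNT against E7, in WNT_CPI against E7_CPI and in E7_ACT against E7, no histone gene was called by edgeR or by DESeq2. An unadjusted p under 0.05 by edgeR was reached by 2, 1 and 3 histone genes, against 1066, 1019 and 1388 of 17441 genes tested. Of all genes tested, 0.482% were called higher and 0.12% lower in WNT, 0.315% and 0.0688% in WNT_CPI, and 0.396% and 0.201% in E7_ACT. In WNT_ACT against WNT_E7, 1 of 52 histone genes was called higher, H2BC12L, an H2B gene on chromosome 21, where 0.677% of all genes tested were called higher and 0.201% lower. It had 3.59 and 3.61 CPM in WNT_ACT, against 1.06 and 1.27 CPM in WNT_E7 (log2 1.62 ± 0.23, edgeR adjusted p = 0.0187). Over all genes tested, DESeq2 called 478 higher and the replicate block 519, and the counts that follow are of histone genes. DESeq2 called 8 higher and the fit with the replicate block 8, and leaving out WNT_E7 replicate 1, WNT_E7 replicate 2, WNT_ACT replicate 1 or the column labelled E7_CPI replicate 1 brought the count to 0, while leaving out WNT_ACT replicate 2 brought it to 2.

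In WNT_ACT against E7_ACT and against WNT, edgeR called no histone gene. An unadjusted p under 0.05 by edgeR was reached by 6 and 9 histone genes, against 2314 and 2159 of 17441 genes tested. Of all genes tested, 2.44% were called higher and 1.33% lower against E7_ACT, and 1.13% and 0.47% against WNT. Over all genes tested, DESeq2 called 717 higher against E7_ACT and 620 against WNT, and the replicate block 898 and 735. DESeq2 called 2 histone genes higher in each, and the fit with the replicate block called 4 and 3. Leaving out WNT_ACT replicate 1 gave 1 call against E7_ACT. The median log2 fold change over the 52 genes was 0.3 against E7_ACT, 0.42 against WNT_E7 and 0.084 against WNT, and these 3 comparisons share the WNT_ACT libraries. WNT_ACT also differs from WNT in time and in a day without Wnt3a, which cannot be told apart from Activin A.

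Genes around the histone genes were read from fixed lists, to be set against the 13% of all genes tested that were called higher and 17.9% lower in WNT_CPI, and 15% and 17.6% in E7_CPI. These shares are from the fit of all libraries without the block. With the block, 3762 of 17441 genes were called higher and 4484 lower in WNT_CPI, and 4268 and 4557 in E7_CPI. Counts without the column labelled E7_CPI replicate 1 come from another fit and are not to be set against either. Of 10 histone variant genes outside the clusters, 4 rose and 1 fell in each CPI-203 comparison at 24 h. H2AX, the variant marked at DNA breaks, rose by log2 1.34 in WNT_CPI and 1.70 in E7_CPI, and MACROH2A2, a variant of silent chromatin, fell by 1.70 in WNT_CPI. The median over this list was log2 0.63 in WNT_CPI and 0.52 in E7_CPI. Of 8 factors that drive histone gene transcription, none rose and 2 fell in each, CCNE1 (by 0.65 in WNT_CPI and 0.69 in E7_CPI), the cyclin that acts at S phase entry, and YY1 (by 0.50 and 0.62). Without the column labelled E7_CPI replicate 1, 1 fell in E7_CPI, and the replicate block called 3 lower in WNT_CPI and 1 higher and 5 lower in E7_CPI, whose libraries the replicate numbers did not pair with those of other groups.

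Of 19 genes for 3′ end processing and decay of histone transcripts, none rose and 3 fell in each comparison, the falls near the share called lower over all genes. Without that column 1 fell in E7_CPI, and the block called 4 lower in WNT_CPI and 2 higher and 4 lower in E7_CPI. The largest fall was that of CPSF2, a subunit of the cleavage complex, by 0.65 in WNT_CPI and 0.95 in E7_CPI. Of 17 tested histone chaperones, 1 rose and 3 fell in WNT_CPI and 3 rose and 3 fell in E7_CPI, the falls again near that share. The E7_CPI counts were 1 and 2 without that column and 3 and 6 with the block, and the WNT_CPI counts with the block were 3 and 4. RBBP4, which carries H3 and H4, fell by 1.31 and 1.44. Of 19 tested S phase genes, 4 rose and 5 fell in WNT_CPI and 2 rose and 6 fell in E7_CPI. Without that column 1 rose and 2 fell in E7_CPI, and the block called 5 higher and 8 lower in WNT_CPI and 3 and 8 in E7_CPI. RRM2, which makes deoxynucleotides, rose by log2 1.01 and 0.98, while the replication genes GINS1 in WNT_CPI and GINS2 in E7_CPI fell by 0.85 and 0.87. Of 17 G2 and M phase genes, none rose and 1 fell in each, or 0 in E7_CPI without that column, while the block called 1 higher and 3 lower in WNT_CPI and 2 and 4 in E7_CPI.

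Of 9 cell cycle exit genes, 5 rose and none fell in each comparison, with a median of log2 1.62 in WNT_CPI and 2.19 in E7_CPI. CDKN1C and CDKN2B, inhibitors of cyclin-dependent kinases, rose by log2 4.07 and 3.86 in WNT_CPI and by 4.12 and 3.88 in E7_CPI. CDKN1B and RBL2, also brakes on the cycle, were at log2 -0.62 and -0.44 in WNT_CPI and -0.44 and -0.88 in E7_CPI and did not pass. The block called 7 higher and 2 lower in WNT_CPI and 6 and 1 in E7_CPI. At 48 h, in WNT_CPI_ACT against WNT_ACT, none of these 9 genes was called. Of 4 genes known to respond to BET inhibition, HEXIM1, SERPINI1 and BRD2 rose and ZMYND8 fell in both, at log2 -3.28 in WNT_CPI and -3.15 in E7_CPI. The part of the cell cycle in the histone values was not tested.

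**Figure D5:**
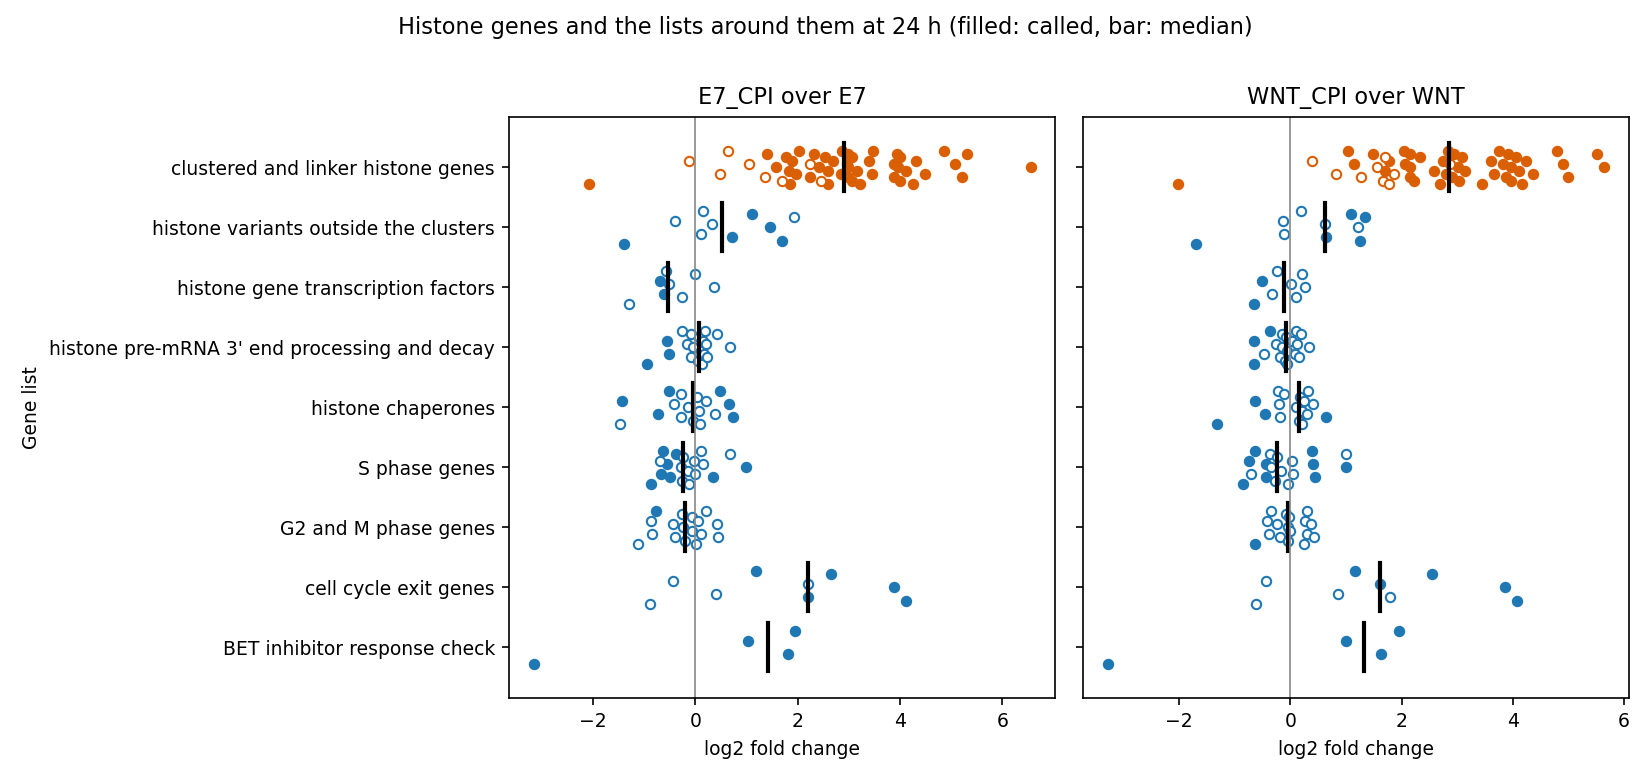
Log2 fold changes at 24 h in E7_CPI over E7 (left) and WNT_CPI over WNT (right) of the histone genes (orange) and of each gene list (blue), 1 point per gene, filled where the gene passed the test, with a bar at the median. The histone genes have their median at 2.91 and 2.85, and the cell cycle exit genes are the list with the next highest median, at 2.19 and 1.62.

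Over the 8 group means, the genes outside the set whose log2 CPM was most like that of H2BC5 were TMEM175, TMEM132A, GALT, IRX5 and OXSM (Pearson r 0.9946 to 0.9977). The same contrast between the CPI-203 groups at 24 h and the rest sets most of this likeness. TMEM175, a lysosomal ion channel gene, averaged 4.66 CPM in WNT_CPI_ACT, 2.99 in WNT_ACT, 12.4 in WNT_CPI, 2.95 in WNT, 12.6 in E7_CPI and 2.95 in E7. Its log2 fold changes were 2.07 in WNT_CPI and 2.10 in E7_CPI, smaller than those of H2BC5.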

How the data were processed

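The members, the gene lists and the tests were chosen with earlier results of these data known, so none of them is independent support. The deposited RNA tables, 1 per replicate number, hold whole-number counts for each gene, per the file headers, and the submitters' processing notes list featureCounts and DESeq2 and the builds hg38 and hg19 without saying which served the RNA. The aligner and the strand setting are not given in the sources used here. The deposited peak positions are in base pairs, per the file headers, in another unit than counts. They held 1 combined list, of which gene starts on GRCh38 fell in a peak for a median of 8.26% per chromosome, so its build was taken as another one and it was not used.

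These counts went into edgeR 4.0.16 under R 4.3.3 (TMM scaling, factors 0.949 to 1.049; all 8 RNA groups in 1 model with 8 residual degrees of freedom; quasi-likelihood F-test, 2-sided). Genes with 10 or more counts in 2 or more libraries were tested, 17441 in all, with Benjamini-Hochberg adjustment over them, and called at an adjusted p under 0.05. CPM divide each count by the TMM-scaled total of its library in units of 1e6 counts. Alternatives were DESeq2 1.42.0, other scalings and filters, fits of the compared groups alone, a replicate block and leaving out each library. The fit was tested on simulated data. Genes were named by a fixed rule: the 3 markers, the called genes with the largest changes in each direction and the most counted gene of each family, and for each list the called genes with the largest change. Other genes singled out, H4C11, H1-2, H3C7, H1-10-AS1 at 48 h, the genes that passed in 1 comparison only and the head-to-head pairs, were chosen after their values were seen.

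The replicate numbers paired the samples in 7 groups: deviations from the group mean correlated between same-numbered libraries at r = 0.421 to 0.816 in the 21 pairs of groups without E7_CPI, and at -0.098 to -0.046 in the 7 pairs with it. The column labelled E7_CPI replicate 1, with 12 empty cells at its foot, lay closer to E7_CPI replicate 2 than any other such pair (median chi-square over genes 1.06, against 12.8 to 25.8 elsewhere and 0.455 from sampling alone).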

Additional observations from a re-analysis of the deposited data

Results flagged for a closer look

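The CPI-203 difference was measured at 48 h and at 24 h in Wnt3a-treated cells, and the difference of these log2 fold changes, that at 48 h minus that at 24 h, passed edgeR's quasi-likelihood F-test (Benjamini-Hochberg adjusted p under 0.05) for the genes that follow. It was -5.25 for H3C4, -4.63 for H2BC18, -4.54 for H4C15, -4.39 for H2BC17 and -4.36 for H4C8. It was -3.64 for H3C14, -3.54 for H2BC5, -3.51 for H2BC12 and -2.67 for H2AC11. For H1-10-AS1 it was 2.42, the other way. The 48 h cells differ from the 24 h cells in time, in Activin A and in a day without Wnt3a and CPI-203, which cannot be told apart.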

How the results depend on the processing

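The median log2 fold change of the histone genes moved little over all alternatives tried: 2.82 to 2.96 in E7_CPI over E7, 2.80 to 2.98 in WNT_CPI over WNT, 0.30 to 0.48 in WNT_CPI_ACT over WNT_ACT and -2.53 to -2.31 in WNT_CPI_ACT over WNT_CPI. Of 1158 values of named genes under alternatives, 1060 kept their direction and their side of the threshold, 60 lost the call, 32 gained it and 6 changed sign. Those 6 were not called: H3C7 in E7_CPI (-0.39 to 0.052 when 1 library was left out, above 0 without E7_CPI replicate 2), H1-10 in WNT_CPI_ACT (-0.59 to 0.1, above 0 without WNT_ACT replicate 2), and the Wnt3a dependence of H4C8 (-0.11 without E7 replicate 2, -0.069 without WNT replicate 2, -0.13 without WNT_CPI replicate 1 and -0.035 with a replicate block without E7_CPI replicate 1). Leaving out 1 library gave 35 to 37 genes called higher and 0 to 1 lower in E7_CPI, and 35 to 40 higher and 0 to 1 lower in WNT_CPI. With the 2 E7_CPI libraries summed as 1, 39 rose and 1 fell in E7_CPI. The replicate block, in which same-numbered libraries are paired, called 7 histone genes higher in WNT_CPI_ACT over WNT_ACT, 4 in WNT_ACT over E7_ACT, 8 in WNT_ACT over WNT_E7 and 3 in WNT_ACT over WNT, and with the column labelled E7_CPI replicate 1 also left out 10, 4, 8 and 4. It moved no other count of histone genes by over 1.5 times. The compared groups alone gave 0 in WNT_CPI_ACT over WNT_ACT and 0 in WNT_ACT over WNT_E7. DESeq2 called 2 in WNT_ACT over E7_ACT, 8 over WNT_E7 and 2 over WNT, and RLE scaling and the filterByExpr filter each called 1 over WNT. With the E7_CPI libraries summed, or without replicate 1 of E7_CPI, WNT_ACT over WNT_E7 gave 0. Leaving out 1 library of the compared groups gave 2 to 4 in WNT_CPI_ACT over WNT_ACT, 0 to 1 in WNT_ACT over E7_ACT, 0 to 2 in WNT_ACT over WNT_E7, and 0 to 1 higher for the 48 h minus 24 h difference. The causes were not tested. Where a group was left with 1 library, it was assumed to vary like the others. The alternatives that summed the E7_CPI libraries, combined the block with leaving one out, or left that column out of comparisons without E7_CPI were chosen after seeing the data. Genes of few counts carried wide errors, such as H1-5 (60 and 59 counts in WNT_CPI, against 5 and 10 in WNT), whose log2 fold change of 2.87 had an SE of 1.01.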
